A study of Homo sapiens with 9 samples.

Results

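PANC1 is a human cell line grown from a carcinoma of the pancreatic duct. Its untreated transcriptome was described here from the 3 control libraries of a series of 9 libraries, and the other 6, from cells that overexpressed NUSAP1 or received an siRNA against it, were not used. The labels give the 3 control libraries the genotype WT and no treatment, and call the cells pancreatic ductal adenocarcinoma cells. They name no passage, medium or clone, and do not say whether the 3 libraries came from separate cultures, so the spread given below is that between libraries and may be technical. A gene was called expressed when its deposited FPKM (fragments per kilobase of transcript, scaled to library size) was at least 1 in all 3 libraries, and silent when it was below 0.1 in all 3. Of 60612 genes in the table, 11133 were expressed (18.4%), 39397 were silent (65.0%) and 32947 genes had no count in any library. Among the 19874 protein-coding genes, 9999 were expressed (50.3%) and 6212 were silent (31.3%). These shares are the background against which the members of each gene list below are to be read. There is 1 group of libraries and no comparison between groups, so no test was run. Where 3 values stand in a row they are given in the order control 1, control 2 and control 3, in FPKM unless another quantity is named.

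Total counts were 73386227, 61990674 and 57115172. No pair of libraries held identical values. The chi-square per degree of freedom of their counts was 97.7 to 135 between pairs, a scale that takes each count as a single fragment, which these counts may not be. Over the expressed genes the rank correlation of counts was between 0.976 and 0.981, and 1.99% to 2.35% of these genes lay over 2-fold apart between any pair. The typical expressed protein-coding gene outside the mitochondrial genome had a coefficient of variation of 8.72% over the 3 libraries (the median of 9986 genes), and 116 of them passed 50%.

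Low levels of transcripts of other tissues set the libraries apart. The summed FPKM of 22 hepatocyte genes was 1.35, 28.3 and 33.3, and 2, 16 and 16 of the 22 reached 0.1. ALB, which encodes serum albumin, stood at 0.0493, 4.32 and 4.85, and APOA1, an apolipoprotein, at 0.0786, 4.59 and 6.19, while the liver enzyme CYP3A4 had no count in any library. A list of 14 heart muscle genes, made after the values were seen, summed to 0.789, 7.58 and 11.2, led by the atrial hormone NPPA at 0.0552, 3.46 and 6.23. In the opposite direction, the summed FPKM of 22 skin and stroma genes was 17.8, 8.32 and 10.2. Only 1 of the 22 was expressed, and that gene made up most of the sums in controls 2 and 3. The 22 genes were also listed after the values were seen. Of the 22, 10, 1 and 1 reached 0.1, among them KRT6A at 3.1, 0 and 0 and KRT17 at 1.16, 0 and 0. Haemoglobin beta, HBB, followed at 1.21, 0.0394 and 0. Since a gene had to pass in every library, no hepatocyte gene was called expressed (0 of 22), but 17 of the 22 also failed to be called silent. In bulk RNA, fewer cells of a type and less RNA per cell cannot be told apart. The part of these transcripts in the results was not tested, and genes that touch these lists are named below with their 3 values.

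The exocrine pancreas consists of acinar cells, which make digestive enzymes, and duct cells, which line the channels that drain them, while the endocrine islets secrete insulin, glucagon and other hormones. Pancreatic ductal adenocarcinoma has duct-like features. It is commonly sorted by RNA into a classical type, with genes of differentiated gut epithelium, and a basal-like type, with genes of squamous and basal epithelium. PANC1 is known as a poorly differentiated line with loss of CDKN2A.

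Nuclear protein-coding genes held 86.0% ± 2.08 (SD, n = 3) of all counts, and the genes of the mitochondrial genome 14.0%, 11.2% and 10.1%. Long non-coding genes took 0.879% ± 0.00894 and pseudogenes 1.28% ± 0.0747. Only 406 of 14828 long non-coding genes (2.74%) and 608 of 15167 pseudogenes (4.01%) were expressed. Ranked once by mean share of counts over the 3 libraries, the 10 most abundant genes together held 12.1% ± 1.6 of the counts. The 746 most abundant genes held 50%. The expressed protein-coding genes outside the mitochondrial genome had a median mean FPKM of 6.47, with 252 genes at 100 or above, 6 at 1000 or above and 1114 below 2.

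**Figure D1:**
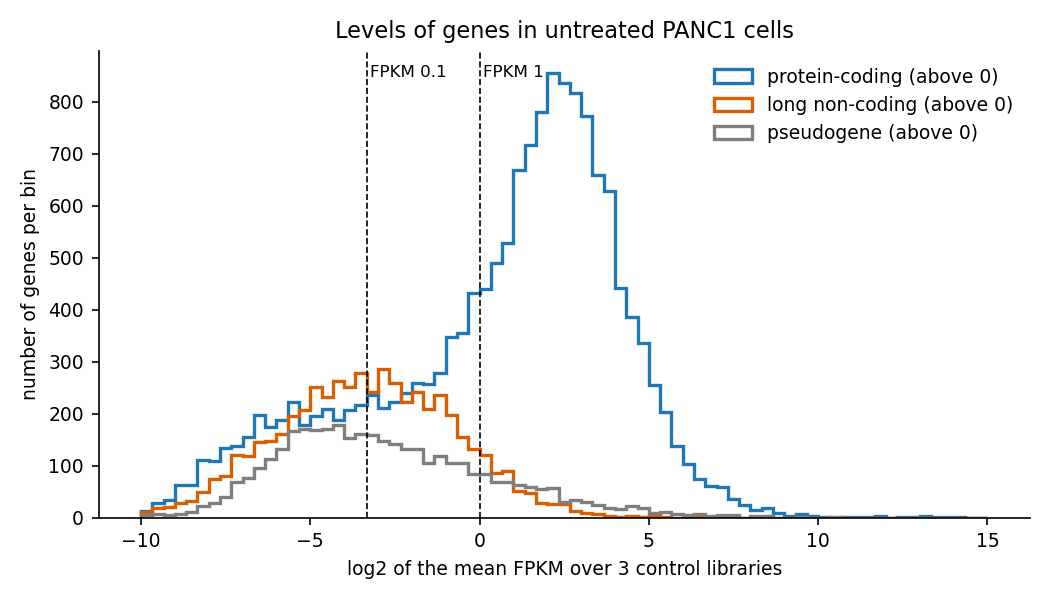
Number of genes per bin of log2 mean FPKM over the 3 control libraries, for genes above 0, by gene class; dashed lines mark FPKM 0.1 and 1. Most protein-coding genes above 0 lie right of FPKM 1, while most long non-coding genes and pseudogenes lie left of it.

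TMSB10, a thymosin that binds actin monomers, had the highest FPKM of all nuclear protein-coding genes, 3511, 3132 and 3788. EEF1A1, the elongation factor that brings transfer RNAs to the ribosome, followed at 2384, 2614 and 2820.4, and GAPDH, a glycolytic enzyme, at 1822, 1775 and 2048. The order of these genes was the same in every library. The 25 highest genes fell into few kinds of function. Translation gave 11 of them, led by the ribosomal proteins RPS16 at 1519, 1551 and 1916 and RPS2 at 984, 807 and 1030.5, with RPL41, RPS12, RPL8, RPL7A, RPL19, RPS18 and RPL23A between 493 and 786 in the mean, and with EEF1A1 and FBL, the fibrillarin that methylates ribosomal RNA, at 1038, 1021 and 1113. The cytoskeleton gave 8: both thymosins, the actins ACTG1 at 1137, 1081 and 1458 and ACTB at 601, 572 and 799, the tubulins TUBB and TUBA1B, profilin PFN1 and vimentin. VIM, the intermediate filament of mesenchymal cells, ranked 14 at 745, 716 and 708. The other 6 were GAPDH and ENO1 of glycolysis, the ferritin light chain FTL, the chaperone HSP90AB1, the lysosomal precursor PSAP and the proteasome ATPase PSMC4. Ribosomal protein genes, actins, tubulins and EEF1A1 have many near-identical copies, so their values are uncertain: the pseudogene EEF1A1P5 alone was listed at 752, 806 and 770.4.

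ACTG1 exceeded ACTB by 1.87-fold ± 0.0387 (SD, n = 3), and TMSB10 exceeded TMSB4X by 5.91-fold ± 0.4. The ratio of each of these related pairs lay on the same side of 1 in all 3 libraries.

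LDHA, the lactate dehydrogenase subunit named in the series title, ranked 142 among nuclear protein-coding genes at 139, 148 and 155. Its partner subunit LDHB was higher in every library, at 235, 227 and 243, so that LDHA over LDHB was 0.626 ± 0.0324 (SD, n = 3). LDHA has processed pseudogenes that may share its reads. NUSAP1, the spindle protein that the study perturbed, ranked 890 at 30.9, 34 and 42.1, with control 3 above the others. HIF1A, the oxygen-sensitive subunit of a transcription factor, ranked 1759 at 19.6, 21.2 and 18.9, and MYC, a growth-driving transcription factor, ranked 2812 at 13.1, 12.3 and 12.7.

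Among mitochondrial genes, MT-CO2, a subunit of cytochrome c oxidase, was highest at 20343, 17296 and 17599.8, followed by MT-ND4, a subunit of complex I, at 17701, 12985 and 10941. Control 1 was the highest library for both, as for the mitochondrial share as a whole. Nuclear copies of mitochondrial sequence share reads with these genes: MTCO1P12 was listed at 256, 24 and 20.4, far higher in control 1 than in the others.

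The long non-coding gene with the highest level and an official name was H19, an imprinted transcript of fetal tissue and many tumours, at 130.2, 107 and 125. Its neighbour IGF2, an imprinted growth factor gene chosen here after its value was seen, stood at 7.0, 5.13 and 5.9. NORAD, a transcript that binds Pumilio proteins, reached 27.6, 32.8 and 24.6. Among the 10 highest long non-coding genes were 4 entries, under 2 clone names, in the ribosomal DNA region of chromosome 21, from 36.5 to 284.7 in the mean, which are near-identical copies whose reads cannot be assigned to 1 of them. SNHG6, a host gene of small nucleolar RNAs, closed the 10 at 24.7, 23.3 and 27.7. The other 3 carried clone names only, AC011603, AC023509 and AL662884, with means of 42.3, 39.1 and 34.8.

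**Figure D2:**
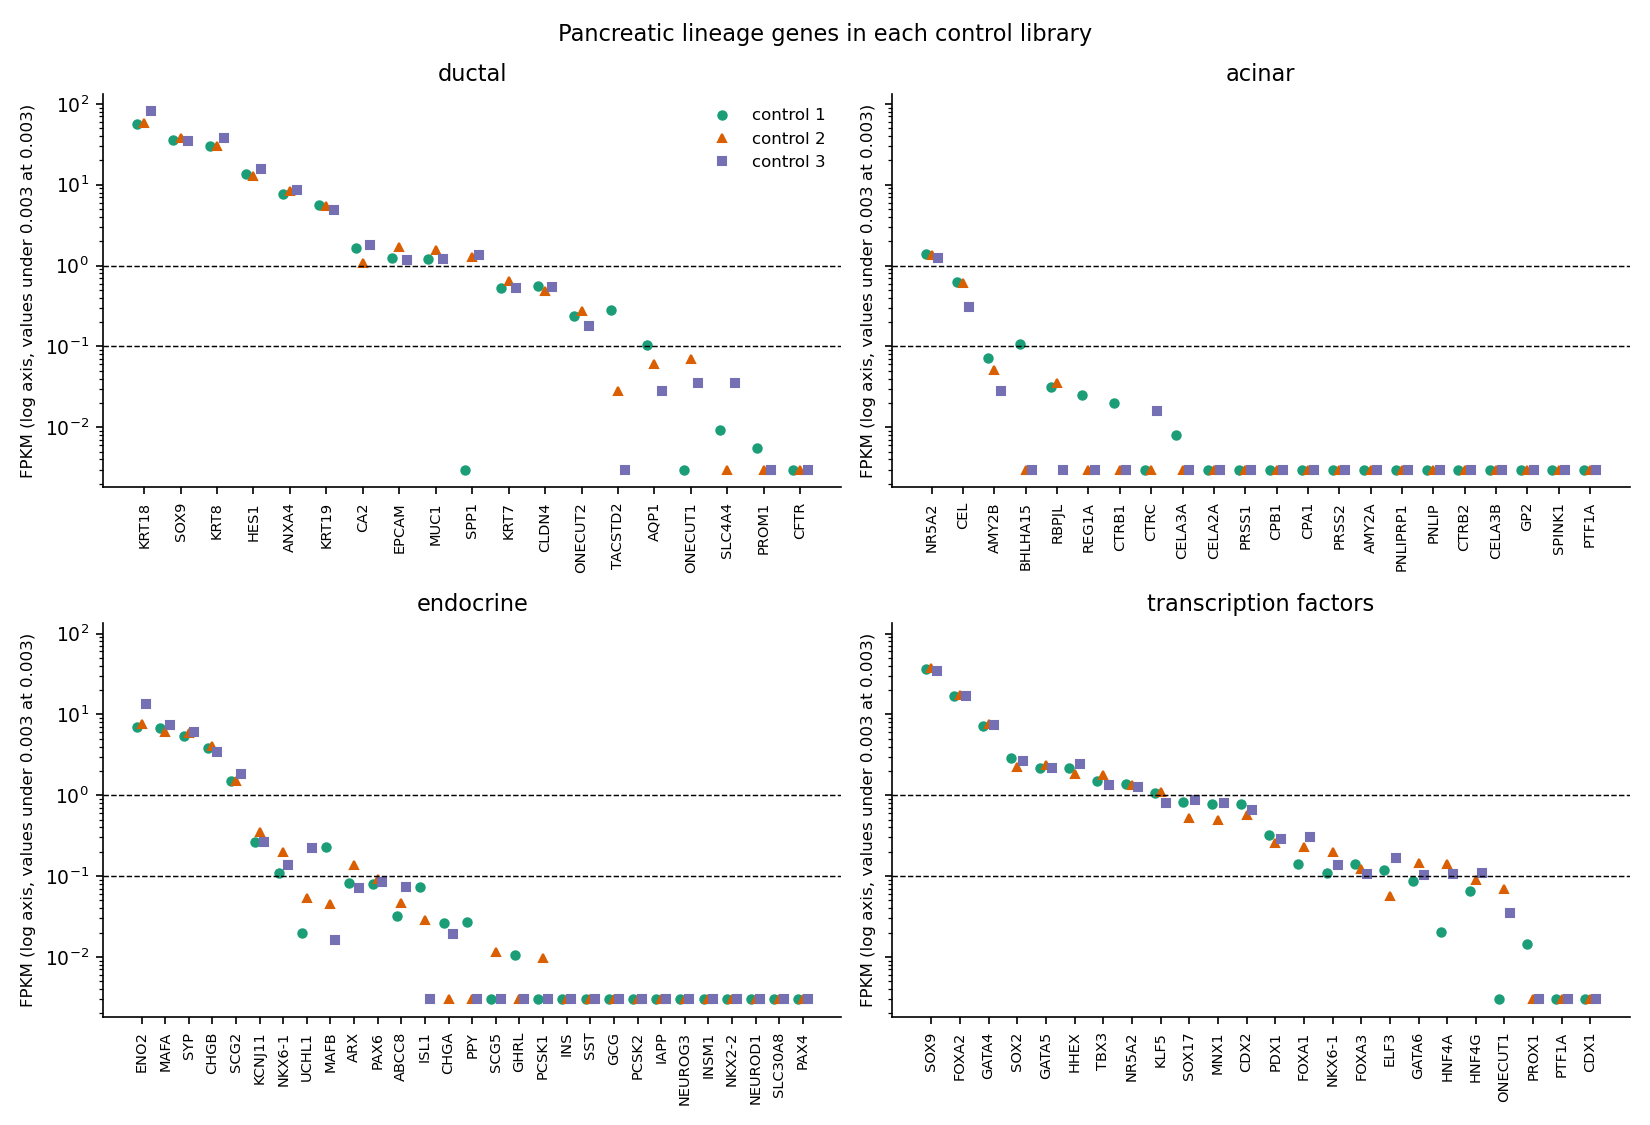
FPKM on a log axis of duct, acinar and endocrine markers and of pancreas and foregut transcription factors in control 1 (circles), control 2 (triangles) and control 3 (squares); values under 0.003, zeros included, are drawn at 0.003, and dashed lines mark 1 and 0.1. KRT18, KRT8, SOX9 and FOXA2 lie far above 1 in every library, while most acinar genes and the main islet hormones have no count in any. Not every list member is drawn.

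Duct markers were present in part. Of 20 members, 9 were expressed and 5 silent. The simple-epithelium keratins led, with KRT18 at 56, 58.7 and 80.8 and its pairing partner KRT8 at 30., 30.1 and 37.6. SOX9, the transcription factor that marks ducts and their progenitors, followed at 36, 37.5 and 34.7. KRT19, the keratin most used to mark ducts, was lower at 5.65, 5.42 and 4.88, and KRT18 exceeded it by 12.4-fold ± 3.59. HES1, a Notch target, stood at 13.4, 12.9 and 15.8 and the calcium-binding ANXA4 at 7.75, 8.36 and 8.68. CA2, the carbonic anhydrase of bicarbonate secretion, EPCAM, an epithelial adhesion molecule, and MUC1, a membrane mucin, were just inside the threshold with lowest libraries of 1.08, 1.18 and 1.19. KRT7 at 0.533, 0.639 and 0.533 and the tight-junction gene CLDN4 at 0.562, 0.481 and 0.54 fell just outside it. CFTR, the chloride channel of duct cells, had no count in any library. SPP1, which encodes osteopontin, was at 0, 1.28 and 1.37, without a count in control 1. A link to the hepatocyte transcripts, also lowest in control 1, was not tested. On these markers the label of duct carcinoma cells was met by keratins 8, 18 and 19 and SOX9, and not by CFTR.

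The acinar programme was almost wholly silent. Of 23 members 20 were silent, 14 of them without a count, and 1 was expressed. The expressed member was NR5A2, a nuclear receptor that acts with PTF1A in acinar cells but is also found elsewhere in the gut, at 1.39, 1.34 and 1.26. PTF1A itself had no count, nor had the trypsinogens PRSS1 and PRSS2, the carboxypeptidases CPA1 and CPB1, the lipase PNLIP or the amylase AMY2A. CEL, carboxyl ester lipase, was the highest enzyme at 0.622, 0.606 and 0.311. BHLHA15, a factor of secretory cells, was at 0.109, 0 and 0, with reads in control 1 only. A gene without a count was not detected at this depth, which does not show that it is absent.

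Of 29 endocrine genes, 5 were expressed and 19 silent. The main islet hormones were not detected: INS (insulin), GCG (glucagon), SST (somatostatin) and IAPP (amylin) had no count in any library. The transcription factors NEUROG3, NEUROD1, NKX2-2, INSM1 and PAX4, and the hormone-cleaving protease PCSK2, had none either. The 5 expressed members were ENO2, a neuronal enolase, at 6.94, 7.55 and 13.3, MAFA, a factor of mature beta cells, at 6.7, 5.97 and 7.42, SYP, a synaptic vesicle protein, at 5.37, 5.95 and 5.99, CHGB, a granin of secretory granules, at 3.86, 4.1 and 3.45, and SCG2, another granin, at 1.49, 1.5 and 1.81. CHGA, the granin most used as an endocrine marker, was silent at 0.0264, 0 and 0.0191. PPY and GHRL, a pancreatic polypeptide and the ghrelin gene, had counts in control 1 only, at 0.0271 and 0.0104.

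Transcription factors of the pancreas and foregut divided within families. Of 26 members 8 were expressed, 12 lay between the thresholds and 6 were silent. FOXA2, a pioneer factor of endoderm, was at 16.6, 17.2 and 16.9, while its relatives FOXA1 and FOXA3 were at 0.139, 0.228 and 0.30 and 0.142, 0.121 and 0.104. GATA4 was at 7.27, 7.51 and 7.36, GATA5 at 2.15, 2.34 and 2.16 and GATA6, a factor linked to the classical tumour type, at 0.0872, 0.143 and 0.102. GATA4 exceeded GATA6 by 69.4-fold ± 15.7 (SD, n = 3), with ratios of 52.5 to 83.4. SOX2, a stem-cell and foregut factor, was at 2.89, 2.25 and 2.63, HHEX at 2.15, 1.83 and 2.46 and TBX3 at 1.5, 1.8 and 1.34. KLF5, a factor of epithelial growth, missed the threshold in 1 library at 1.07, 1.11 and 0.812. PDX1, the factor that specifies the pancreas, lay between the thresholds at 0.32, 0.256 and 0.286, as did NKX6-1 at 0.11, 0.198 and 0.138. HNF4A, a liver and gut factor, was at 0.0204, 0.143 and 0.105, lowest in control 1. Its link to the hepatocyte transcripts was not tested either. The intestinal factor CDX1 had no count.

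Neither tumour subtype list was widely expressed. Of 24 classical genes 2 were expressed and 17 silent, 9 of them without a count. AGR2, a protein-folding factor of mucous cells, was at 43.1, 43.1 and 48.1 and LYZ, lysozyme, at 1.54, 2.34 and 3.64. TFF3, a trefoil peptide, lay at the threshold with 0.821, 1.0 and 1.05. TFF1, TFF2, REG4 and KRT20, which are high in differentiated gut epithelium, had no count. Of 25 basal-like genes 2 were expressed and 13 silent. These were CTSV, a cysteine protease, at 14.7, 12.2 and 13.1 and SLC2A1, the glucose transporter GLUT1, at 5.17, 5.88 and 5.92. KRT15 at 0.961, 1.19 and 0.805 and the calcium-binding S100A2 at 0.909, 0.956 and 0.998 lay at the threshold. KRT6A and KRT17, the keratins of stressed epithelium, had counts in control 1 only. Both are themselves members of the skin and stroma list, which was made after the values were seen. Both shares of expressed members, 8.33% and 8%, stood below the 50.3% over all protein-coding genes. The counts depend on the threshold: 5 basal-like genes passed at FPKM 0.5, 6 at a TPM of 1, a length-scaled unit with a fixed total per library, and 5 at a CPM of 1, which scales counts to library size only, and 4 classical genes passed by either of these units.

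**Figure D3:**
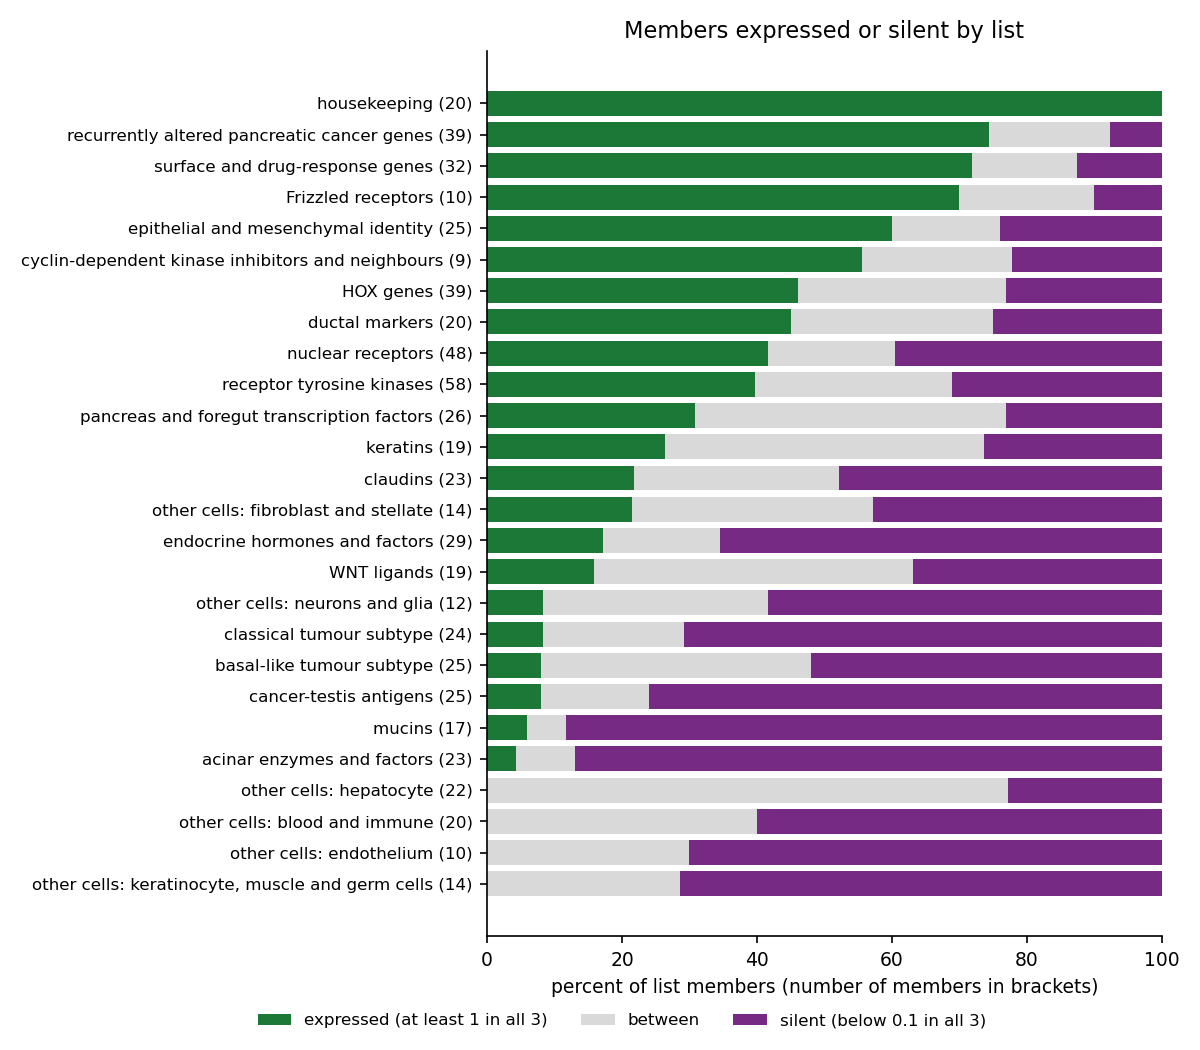
Percent of the members of each list that were expressed (green), between the thresholds (grey) or silent (purple) in the 3 control libraries; the number of members in the table is in brackets. All 20 housekeeping genes were expressed, 29 of 39 recurrently altered pancreatic cancer genes were, and 1 of 17 mucins was.

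Genes of epithelial and of mesenchymal identity were both among the expressed ones. Of 25 members, pooled from both, 15 were expressed (60%, against 50.3% of all protein-coding genes) and 6 silent. Bulk RNA does not show whether the same cells held both kinds. VIM exceeded CDH1, which encodes E-cadherin, by 392-fold ± 19.3. CDH1 was nevertheless expressed at 1.86, 1.77 and 1.91, together with the tight-junction genes CLDN7 at 8.93, 9.67 and 8.2, TJP1 at 7.24, 7.59 and 6.3 and OCLN at 4.6, 5.19 and 4.29. CDH2, N-cadherin, was at 3.59, 4.19 and 3.74, 2.09-fold ± 0.248 above CDH1. Among the repressors of E-cadherin, SNAI1 was at 7.96, 8.77 and 7.98 and ZEB1 at 2.52, 2.5 and 1.57, while SNAI2 was at 0.239, 0.0909 and 0.0957 and ZEB2 was silent at 0.0228, 0.0281 and 0.0315. TWIST2 was at 2.48, 2.45 and 2.75 and its relative TWIST1 had no count. The epithelial splicing factor ESRP2 was at 3.87, 4.01 and 5.59 and its relative ESRP1 at 0.196, 0.181 and 0.137. The epithelial factors OVOL1, OVOL2 and GRHL2 were silent. S100A4 at 30.6, 31.3 and 41.9 and the matrix protease MMP2 at 20.3, 21.7 and 22 were the next highest after VIM. Fibronectin, FN1, lay at the threshold with 0.832, 1.3 and 1.23.

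Of 19 keratins 5 were expressed, KRT18, KRT8, KRT10, KRT19 and KRT80. KRT80 was at 3.29, 3.9 and 3.58 and KRT10, a keratin of skin that is also broadly transcribed, at 9.19, 8.17 and 10.1. KRT5, KRT14 and KRT16 had their highest value in control 1, and 0.0723 or less elsewhere. Of 17 mucins MUC1 alone was expressed, and 15 were silent. The gel-forming mucins MUC5AC at 0.0108, 0.0162 and 0.00318 and MUC2, with no count, and the membrane mucin MUC4 at 0.0101, 0 and 0, were among the silent ones. MUC3A lay between the thresholds at 0.237, 0.252 and 0.263. Of 23 claudins, the strand proteins of tight junctions, 5 were expressed and 11 silent. After CLDN7 these were CLDN12 at 3.41, 3.87 and 3.35, CLDN23, CLDN1 and CLDN15. CLDN18, which marks gastric-type cells, was silent.

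Of 39 genes recurrently altered in pancreatic cancer, 29 were expressed and 3 silent, by which the list lay above the 50.3% of all protein-coding genes. SMAD4, the shared mediator of TGF-beta signals, was at 2.67, 2.89 and 2.46, and the receptors TGFBR2 at 10.1, 10.8 and 9.69 and TGFBR1 at 6.49, 7.2 and 5.33. SMAD3, at 31.1, 32.7 and 31.2, was above SMAD2, at 1.65, 1.86 and 1.8. The highest members were AKT2, a growth-signalling kinase, at 84.3, 87.3 and 92.4, and the cyclin CCND1 at 59.3, 61.4 and 59.2. Chromatin genes were expressed at lower levels, with ARID1A at 8.33, 8.8 and 7.21, PBRM1 at 4.59, 4.76 and 3.75 and SMARCA4 at 1.45, 1.65 and 1.32, while KDM6A fell just below the threshold at 0.828, 0.906 and 0.747. TERT, the telomerase catalytic subunit, was also just below it at 0.971, 0.848 and 0.974. The 3 silent genes were CDKN2A, ROBO2 and SLIT2, ROBO2 and SLIT2 being an axon guidance receptor and its ligand. RNF43, a ligase that removes Frizzled receptors, was above 0.1 in control 3 only, at 0.0486, 0.0573 and 0.108.

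CDKN2A, which encodes the cell-cycle inhibitors p16 and ARF, had 4 counts in each library and FPKM values of 0.010, 0.0119 and 0.0128. Its neighbour CDKN2B, a related inhibitor 8.03 kb away, had 4, 0 and 2 counts. MTAP, a methionine salvage enzyme 30.1 kb away on the other side, was not silent, at 0.801, 0.794 and 0.487 and 1012, 847 and 482 counts. Within 2 Mb on either side lay 26 protein-coding genes, CDKN2A included, of which 21 were silent and 3 expressed: KLHL9 at 3.58, 4.18 and 2.91, FOCAD at 1.86, 2.25 and 2.12 and MLLT3 at 1.46, 1.54 and 1.24. The region holds 16 type I interferon genes, which are normally induced by viral infection, and all were silent, 15 of them without a count. DMRTA1, 452 kb beyond CDKN2A, stood at 0.373, 0.457 and 0.312, and ELAVL2, a neuronal RNA-binding protein further out, at 0.00831, 0 and 0. HACD4 was silent at 0.00945, 0 and 0.0242. Around SMAD4, in a window of the same size, 12 of 20 protein-coding genes were expressed and 6 were silent. RNA levels do not show whether DNA is absent: loss of the gene and lack of transcription cannot be told apart here. Counts in this table pile up at 4, with 1248 genes at 4 against 428 at 3 and 260 at 5 in control 1, so 4 counts may stand for fewer fragments.

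Most other cyclin-dependent kinase inhibitors of the list were expressed. CDKN2C was at 27.2, 23.2 and 24.6, CDKN1B, p27, at 13, 14.7 and 14.5, CDKN1A, p21, at 11.6, 11.8 and 12.9 and CDKN2D at 7.29, 8.55 and 10.4, with CDKN3, a phosphatase of cyclin-dependent kinases, at 19.3, 20.6 and 22.3. CDKN1C, p57, fell just short of the threshold at 0.986, 0.817 and 0.812. Each of these stood far above CDKN2A and CDKN2B in every library.

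Along the chromosomes, the running median of 15 neighbouring expressed protein-coding genes reached its highest value on chromosome 19. The window, found after the values were seen, spanned positions 39306566 to 39981764 (0.675 Mb; deposited positions, which match GRCh38 in GENCODE 29) and was centred on SUPT5H. Its median was 73.5 FPKM, a log2 value of 6.20, against a median log2 value of 2.69 over 9664 windows. The next highest peak, centred on RPL10 on the X chromosome, reached 43.8 FPKM. The same window was highest in each library alone, at 75.6, 77.2 and 67.6. With 11 genes per window the centre was DLL3, and with 21 it moved to FBXO27, still on chromosome 19.

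That window held 23 protein-coding genes: the 15 expressed genes that define it, 3 between the thresholds and 5 silent. The window was picked for its high median, so high-ranking genes in it follow in part from that choice. It held 4 of the 30 highest nuclear protein-coding genes: RPS16, FBL, PSMC4 at 476, 464 and 516, and PAF1, a subunit of a complex that travels with RNA polymerase II, at 453, 427 and 441. The remaining expressed genes included SUPT5H, an elongation factor, at 137, 142 and 137, TIMM50, a mitochondrial import protein, at 127, 127 and 145, EID2 at 103, 105 and 109 and PLEKHG2 at 75.6, 77.2 and 67.6. DLL3, a Notch ligand usually confined to nervous and neuroendocrine tissue, was at 24.8, 29.2 and 35.1. Silent genes stood among them, the galectins LGALS13, LGALS14 and LGALS16, CLC and LEUTX, none with a count. ZFP36, an RNA-decay factor of the early stress response, was the least even of the 15, at 17.6, 60.5 and 65, with control 1 low. AKT2 lay farther along, past the window, and exceeded its relative AKT1, at 15.2, 15.5 and 15.4, by 5.73-fold ± 0.248. On the other side ACTN4, an actin crosslinker, was at 247, 253 and 243 and EIF3K, a translation factor, at 231, 224 and 265. Amplification of this part of chromosome 19 is known in PANC1 from other work. Copy number and other cell types were not analysed here, so the part of gene dose in these levels was not tested.

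**Figure D4:**
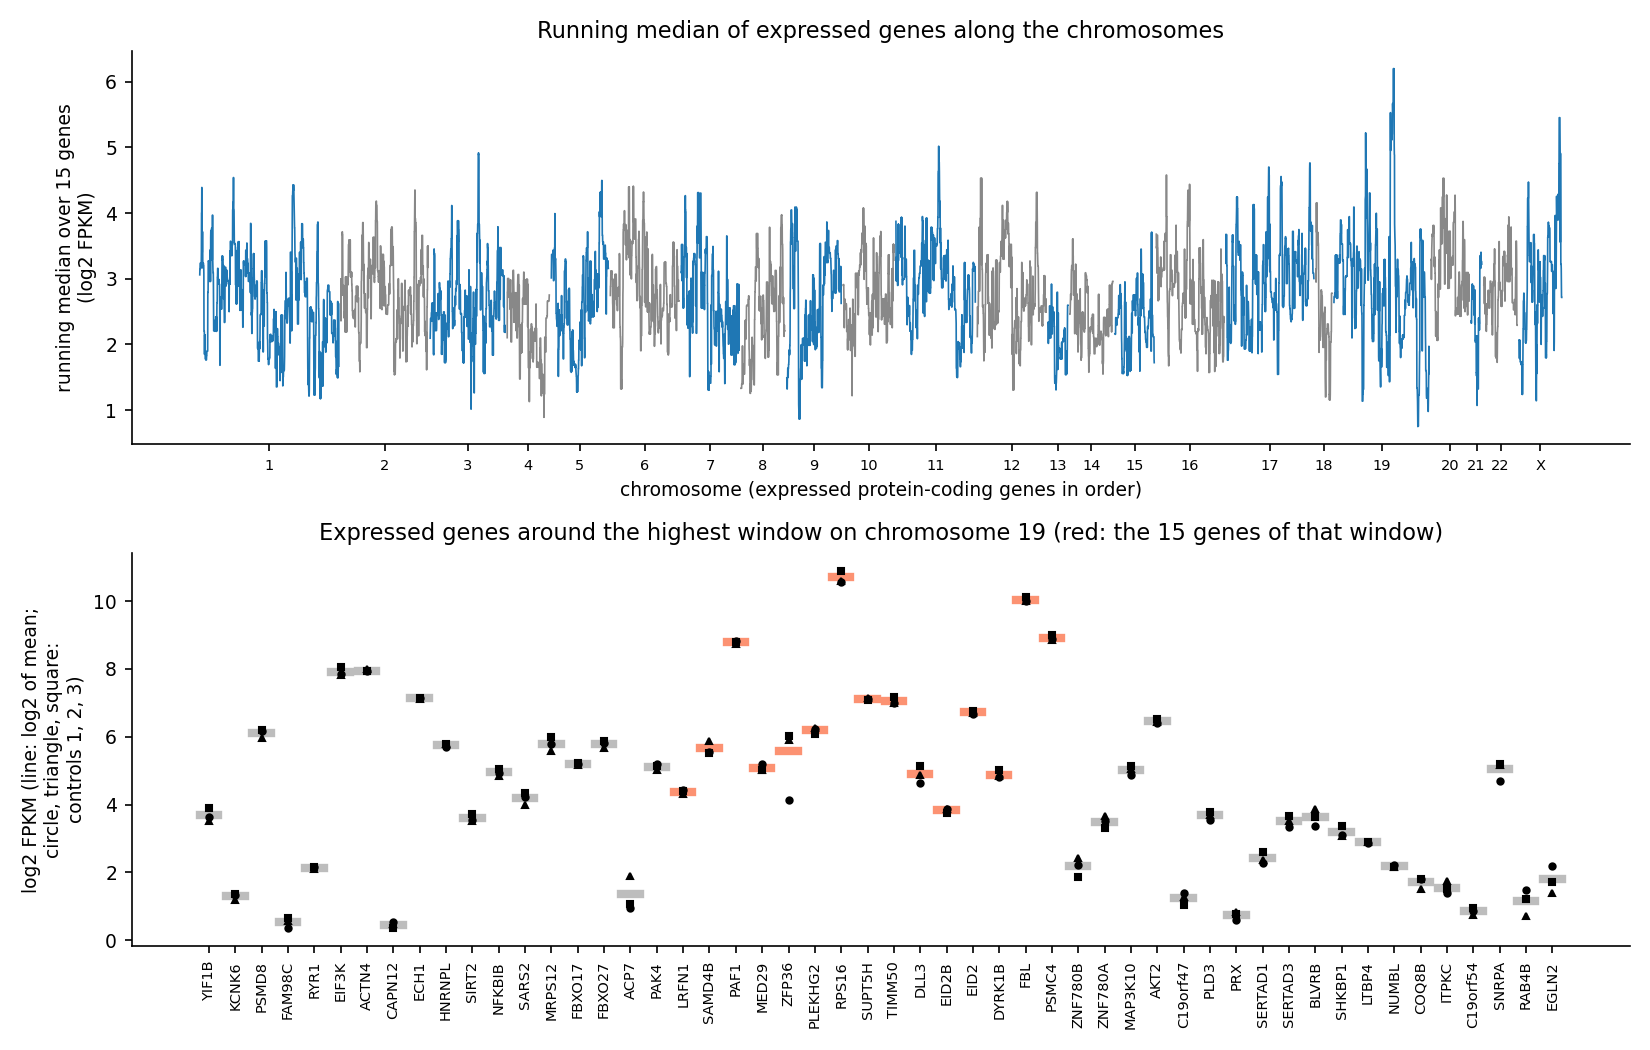
Top: running median of log2 FPKM over 15 expressed protein-coding genes in chromosome order. Bottom: log2 FPKM of each expressed gene around the highest window, with the mean as a line (red inside the window) and controls 1, 2 and 3 as a circle, a triangle and a square. The window on chromosome 19 peaks at 6.20, and RPS16, FBL, PSMC4 and PAF1 stand highest in it.

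Receptors and surface genes varied by family. Of 58 receptor tyrosine kinases, which pass growth-factor signals into the cell, 23 were expressed and 18 silent. EPHA2, an ephrin receptor, was highest at 54.7, 55.8 and 56.2, 3.99-fold ± 0.57 above EGFR at 14.3, 15.9 and 12.2. AXL, the receptor of GAS6, was at 22.5, 22.6 and 23.5, PTK7 at 21.3, 20.4 and 19.7 and EPHB4 at 18.8, 20.4 and 20.9. IGF1R at 6.61, 7.71 and 6.06, MET at 6.26, 6.99 and 4.29 and ERBB2 at 5.41, 5.23 and 6.15 were lower. PDGFRA, KIT, ALK and CSF1R were silent, and ROS1, TEK, NTRK3 and INSRR had no count.

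Among 32 surface and drug-response genes, 23 were expressed and 4 silent. The nucleoside transporters that carry gemcitabine differed: SLC29A1 was at 71.9, 70.8 and 82.7, 6.48-fold ± 0.511 above SLC29A2, while the concentrative transporters SLC28A1 and SLC28A3 had no count. DCK, the kinase that activates gemcitabine, was at 10.6, 11.6 and 12.5, and its target subunits RRM1 and RRM2 were at 48.8, 55.4 and 49.5 and 32.1, 33.5 and 27.6. CDA, the deaminase that inactivates it, was near the threshold at 1.5, 1.31 and 2.01. The efflux pump ABCC1 was at 38.8, 44.9 and 40.4, while ABCB1 was silent at 0.00674, 0.0599 and 0. CD24 was at 72.8, 74.8 and 74.8 and CD44 at 30.9, 30.7 and 34.1, and CD24 has near-identical copies that may share reads. The neurotensin receptor NTSR1 was at 14.7, 14.6 and 16.2. Mesothelin, MSLN, a surface antigen of most pancreatic tumours, fell short of the threshold at 0.662, 0.481 and 0.331, and MUC16 was silent.

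Of 48 nuclear receptors, ligand-regulated transcription factors, 20 were expressed and 19 silent. NR2F6 was highest at 24.3, 23 and 28.9, followed by the retinoid receptors RARG at 8.32, 8.61 and 8.79 and RXRB at 7.87, 7.08 and 9.01. ESRRA, a regulator of mitochondrial genes, was uneven at 4.93, 7.95 and 10.9. The glucocorticoid receptor NR3C1 was at 2.9, 5.92 and 5.12, and PPARG just passed the threshold at 1.4, 1.14 and 1.04. The vitamin D receptor VDR fell just below it at 0.755, 0.702 and 0.748. The oestrogen receptor ESR1 was silent, and the progesterone receptor PGR had no count.

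Of 19 WNT ligands 3 were expressed, WNT7B at 10.9, 10.3 and 11.7, WNT9A at 7.34, 7.53 and 7.82 and WNT5B at 1.72, 2.36 and 2.07, and 7 were silent. Of 10 Frizzled receptors 7 were expressed. FZD6 was highest at 14.3, 14.4 and 14, followed by FZD2 at 7.3, 7.58 and 8.73, FZD8 at 3.92, 3.96 and 3.96, FZD7 at 3.02, 2.49 and 3.24 and FZD4 at 2.14, 2.71 and 1.86. FZD1 at 1.13, 1.34 and 1.26 and FZD5 at 1.17, 1.12 and 1.18 were just above the threshold, FZD9 at 0.274, 0.285 and 0.402 and FZD3 at 0.225, 0.253 and 0.198 below it, and FZD10 had no count. RNF43, which limits Frizzled receptors at the surface, was near-silent as given above.

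HOX genes, which set position along the body axis and lie in 4 clusters, were expressed by cluster. In the HOXB cluster on chromosome 17, 9 of 10 genes were expressed with a cluster median of 22.4, and in the HOXC cluster on chromosome 12, 8 of 9 with a median of 14.8. In the HOXA cluster on chromosome 7, 1 of 11 was expressed with a median of 0.26, and in the HOXD cluster on chromosome 2, 0 of 9 with a median of 0.0278. HOXA5 and HOXA13 lay between the thresholds at 1.06, 0.709 and 0.774 and 0.875, 0.789 and 0.701. HOXB7 was at 47.8, 45.9 and 46.9, HOXB6 at 31.7, 32.9 and 33.9, HOXB8 at 27.8, 27.8 and 27.9 and HOXB9 at 28.5, 29.5 and 28.3. These 4 neighbours were even over the libraries. HOXB1, at the end of its cluster, had no count, and HOXB13, set apart from the rest, was at 2.19, 2.19 and 2.52.

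HOXC10 had the highest HOX level at 65.7, 42.7 and 44.8, with control 1 above the others, so its order with HOXB7 depends on the library. HOXC12 was at 20.5, 18.8 and 21.1, HOXC6 at 18.4, 18.7 and 18.3 and HOXC13 at 14.8, 14 and 15.7, while HOXC5 missed the threshold in control 3 at 1.1, 1.27 and 0.605. HOTAIR, a long non-coding gene within the HOXC cluster chosen after its value was seen, was at 12.5, 12.3 and 11.1. HOXB2 at 9.4, 25.2 and 27.6 and HOXB3 at 11.1, 8.79 and 5.06 were the least even of the expressed HOX genes. Neighbouring HOX genes share overlapping transcripts, as HOXB3 and HOXB4 or HOXC4 and HOXC5 do, so levels within a cluster may trade reads. The highest gene of the HOXD cluster was HOXD4, at 0.796, 0.622 and 0.852.

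**Figure D5:**
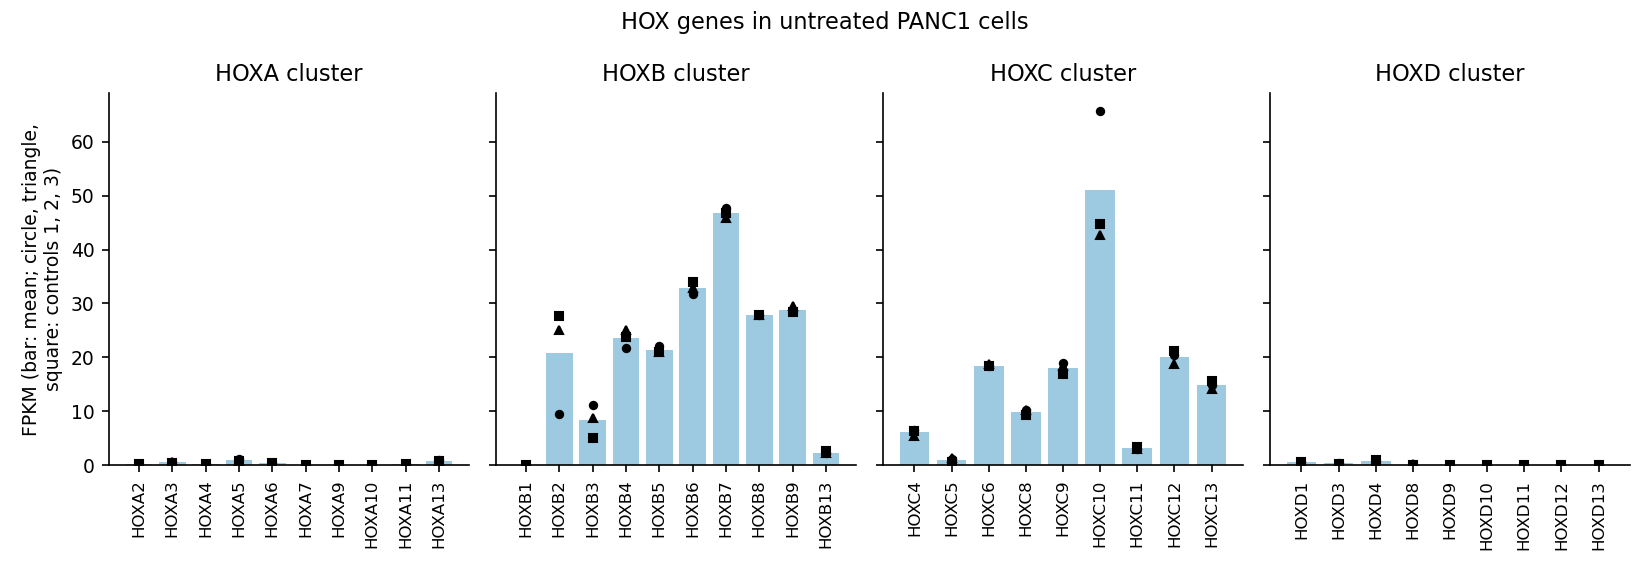
FPKM of genes of each HOX cluster, not all of them drawn, as the mean of 3 libraries (bars) and as controls 1, 2 and 3 (circle, triangle and square). HOXB2 to HOXB9 and most HOXC genes stand above 5, while the HOXA and HOXD genes drawn lie near 0.

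Genes of other tissues were mostly below the threshold. Of 25 cancer-testis genes, which are normally limited to germ cells, 2 were expressed and 19 silent. PRAME was at 36, 36.4 and 37.2 and the helicase DDX43 at 15.4, 16.7 and 13.7, while LIN28B, which blocks let-7 maturation, missed the threshold in 1 library at 1.14, 1.27 and 0.60. None of the 20 blood and immune markers and none of the 10 endothelial markers was expressed. The leucocyte gene PTPRC stood at 0.00441, 0.0548 and 0.00606, and PECAM1 and VWF were silent. Of the endothelial list ESAM came nearest, at 0.947, 1.24 and 1.48. Of 14 fibroblast markers 3 were expressed: COL1A1 at 17.4, 18.5 and 17.2, THY1 at 5.22, 5.18 and 5.74 and COL3A1 at 3.51, 3.36 and 3.12. COL1A2, whose product joins that of COL1A1 in type I collagen, was at 0.283, 0.0142 and 0.0197, and the fibroblast markers PDGFRA, DCN and FAP were silent. Of 12 neural markers SYT1, a synaptic calcium sensor, was the expressed one at 4.82, 7.06 and 4.15. Of 14 keratinocyte, muscle and germ-cell markers none was expressed.

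Expressed and silent genes were also set side by side by the DNA at their starts, which played no part in the rule. CpG-rich starts are typical of housekeeping genes and CpG-poor starts of tissue-restricted ones. The promoter table used here held 83.4% of expressed but 73% of silent nuclear protein-coding genes, under the 80% set for such a comparison, so promoters were not compared across genes. The first 300 bases of the longest coding transcript in GENCODE 29 were available for 99.8% and 97.1%. Their ratio of observed to expected CpG had a median of 0.799 (quartiles 0.636 and 0.93) for expressed and 0.374 (quartiles 0.214 and 0.642) for silent genes. A ratio of at least 0.6 was found in 78.9% of expressed, 53% of intermediate and 28% of silent genes, against 58.5% of all. Median GC content was 63.7%, 61% and 55.3% in the same order. These are descriptions with no test, and the longest transcript need not be the one used in these cells.

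The promoters of 4 genes are given from 250 bases before to 50 after the start in RefSeq (GRCh38.p14). Each CG dinucleotide and each TATAAA is in capitals. These bases are not the transcript starts compared above. RPS16 (chr19:39435900-39436199, minus strand) and EPHA2 (chr1:16156020-16156319, minus strand) were expressed, and PRSS1 (chr7:142749222-142749521, plus strand) and GCG (chr2:162152198-162152497, minus strand) had no count.
RPS16: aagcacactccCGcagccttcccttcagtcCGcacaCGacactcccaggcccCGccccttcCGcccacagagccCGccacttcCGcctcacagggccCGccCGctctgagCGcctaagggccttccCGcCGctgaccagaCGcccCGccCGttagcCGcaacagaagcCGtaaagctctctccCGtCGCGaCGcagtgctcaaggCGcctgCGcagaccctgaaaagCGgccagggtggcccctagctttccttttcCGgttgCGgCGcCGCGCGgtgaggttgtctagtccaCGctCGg
EPHA2: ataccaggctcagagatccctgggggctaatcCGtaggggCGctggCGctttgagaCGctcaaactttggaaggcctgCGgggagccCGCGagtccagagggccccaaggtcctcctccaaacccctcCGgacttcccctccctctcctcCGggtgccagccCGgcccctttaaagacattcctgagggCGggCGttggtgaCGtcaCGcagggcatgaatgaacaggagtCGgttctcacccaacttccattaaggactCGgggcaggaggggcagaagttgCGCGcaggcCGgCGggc
PRSS1: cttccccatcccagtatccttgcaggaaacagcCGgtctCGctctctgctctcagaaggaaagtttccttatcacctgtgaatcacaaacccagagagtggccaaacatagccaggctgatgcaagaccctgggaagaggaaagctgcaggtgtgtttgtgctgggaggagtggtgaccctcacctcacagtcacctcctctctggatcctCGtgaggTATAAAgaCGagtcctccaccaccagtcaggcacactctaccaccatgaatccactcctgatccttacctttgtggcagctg
GCG: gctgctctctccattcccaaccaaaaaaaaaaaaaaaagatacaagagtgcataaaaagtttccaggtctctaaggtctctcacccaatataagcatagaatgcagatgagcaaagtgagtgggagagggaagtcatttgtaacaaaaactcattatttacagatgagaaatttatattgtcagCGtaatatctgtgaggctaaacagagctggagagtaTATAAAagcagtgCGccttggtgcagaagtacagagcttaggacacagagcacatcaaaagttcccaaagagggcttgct

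The RPS16 promoter held 32 CG dinucleotides and that of EPHA2 20, against 4 in PRSS1 and 2 in GCG. The ratios of observed to expected CpG were 0.962, 0.644, 0.189 and 0.168 in the same order. The EPHA2 ratio was thus not extreme: the lower quartile of expressed genes was 0.636 at their transcript starts. The letters TATAAA, searched on the gene's strand, occurred in PRSS1 and GCG, beginning 32 and 30 bases before the start, and in neither expressed gene. They occurred in 7.71% of 27305 RefSeq promoters of the same length, and in 12% on either strand. These 4 promoters were chosen after the expression values were seen and show single cases.

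Of the 15 genes with the largest ratio of highest to lowest FPKM among 6318 with a mean of at least 5, 12 overlapped another gene (80%, against 65.2% of the 6318). The 6 genes of the 6318 that were listed at 0 in a library are among the 15 by construction of the ratio. RPL36A-HNRNPH2, a read-through locus, was at 0, 35.4 and 31.9, while HNRNPH2 within it was at 56, 4.67 and 6.87, high where the read-through was at 0. One of the MATR3 entries was at 27.6, 1.85 and 3.8, and the other, which it overlaps, at 4.62, 16.6 and 18.2. MIR1244-1, a short gene inside PTMA, was at 0.0854, 303 and 335, while PTMA was at 359.8, 245 and 317. TMEM189-UBE2V1, AL928654, AC245033, AL133415, AL662899 and AC023055 also overlapped protein-coding genes. The pseudogenes IKBKGP1, RPS26P19 and AL162151, the histone H2AC19 and RN7SL2, an RNA of the signal recognition particle family, completed the set with IER2. No source used here says how reads were shared among overlapping loci.

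IER2, an immediate early gene induced by serum and stress, overlapped no gene above 0.1 and was at 26.5, 4.58 and 1.39. Control 1 was highest. Other early genes did not share its order: JUN was at 16.7, 17.4 and 18.4, IER3 at 33.9, 36.9 and 38.5, EGR1 at 1.25, 1.41 and 1.48 and FOS at 0.349, 0.239 and 0.326, and ATF3 at 0.514, 1.08 and 1.17 was lowest in control 1, as was ZFP36. These early genes were picked with their values known.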

How the data were processed

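RNA was poly(A)-selected and made into dUTP libraries, per the labels' protocols. Reads were handled with StringTie 1.3.4d, HISAT2 2.0.4 and cutadapt 1.9, per the submitters' processing notes, listed here in no order. No source used here states the settings, the genome build or the use of strand. The table that the authors deposited holds counts per gene for 60612 genes, and FPKM values scaled to length and library size. FPKM written as 0.0001 was read as 0, and 2 such control entries stood beside a count above 0. Deposited counts pile up at 4 and may not be single fragments, so no counting interval or floor is given. Total counts ranged from 57115172 to 73386227.

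Gene classes came from GENCODE 29 by identifier (58394 of 60612 matched; 58382 of these overlapped the deposited position). Genes were called by FPKM of at least 1, or below 0.1, in all 3 control libraries. The common biological coefficient of variation of the 11133 expressed genes was 0.161, from edgeR 4.0.16 (R 4.3.3, TMM, no group term), tested on simulated data; other steps used Python 3.11.15 and pandas 2.3.3. The members, lists and rules were chosen with earlier results of these data known. Named genes were the 25 highest protein-coding and 10 highest long non-coding genes (the rule said non-coding; small and mitochondrial RNA genes were not ranked), leading and near-threshold list members, the genes around CDKN2A, and the 15 most variable. For the lists, 1 of 26 cancer-testis genes was not analysed here. Alternatives were other thresholds and units, and each library left out. Some named members are not reported here, though they stay in the counts.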

Additional observations from a re-analysis of the deposited data

How the results depend on the processing

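No paired analysis was possible because 1 group was described and no groups were compared. The number of expressed genes ranged from 9142 (FPKM of at least 2) to 13931 (TPM of at least 1), and of silent genes from 32947 (no count) to 42256 (FPKM below 0.2), within 1.5 times of the values reported. By summed FPKM in place of counts, which favours short genes, mitochondrial genes took 38.4%, protein-coding genes 56.1%, pseudogenes 4.15% and long non-coding genes 0.991%. Without mitochondrial genes the 10, 100 and 1000 most abundant genes held 5.90%, 18.4% and 49.1%, against 12.1%, 26.6% and 54.8%. The biological coefficient of variation was 0.401 over all 27665 genes with a count, 0.162 with library totals only, and 0.151 to 0.166 with a library left out. Of 27 lists, the number of expressed members stayed within 1.5 times in 20 at FPKM 0.5, 21 at FPKM 2, 18 by TPM and 16 by CPM. Without control 1 it did so in 25; hepatocyte genes rose from 0 to 7 expressed, and endothelial genes from 0 to 1. Acinar and mucin lists had 0 expressed at FPKM 2, Frizzled receptors 4 and foregut factors 5. Basal-like genes went from 2 to 5 (FPKM 0.5, CPM) or 6 (TPM), and classical genes from 2 to 4 (TPM, CPM) or 1 (FPKM 2). Silent genes within 1 Mb of CDKN2A numbered 20 against 21. With expressed genes at FPKM 2 and silent genes at no count, CpG-rich starts made up 79.9% and 21.6%. The planned promoter comparison across genes was not run, for the missing entries. The chromosome windows and transcript starts were chosen after seeing the data.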
